A study of Mus musculus with 6 samples.

Results

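Transcripts of 10 glycolytic enzymes were followed in whole prostate from a mouse model of benign prostatic hyperplasia. The enzymes were hexokinases 1 and 2 (Hk1, Hk2), the liver and platelet types of phosphofructokinase (Pfkl, Pfkp), aldolase A (Aldoa), phosphoglycerate kinase 1 (Pgk1), enolase 1 (Eno1), muscle-type pyruvate kinase (Pkm) and the A and B subunits of lactate dehydrogenase (Ldha, Ldhb). They were taken from the deposited table by gene symbol and are 10 of its 34745 genes. The rule used no measured value, but the choice of enzymes was made with earlier results of these data known. All 10 passed the filter on low counts that left 15580 genes for testing, with 214 to 15293 counts per gene and mouse. Male C57BL/6 mice, 6 to 8 weeks old at the start, belonged to 2 groups of 3 animals each. The T + E2 group carried 1 subcutaneous slow-release pellet of testosterone and estradiol, which was replaced during the 12 weeks. The control (CON) group had a skin incision that was closed again, with no pellet. RNA came from prostate tissue of separate animals, so the p-values measure the spread between these mice. In such bulk tissue, fewer cells of a type and less RNA per cell cannot be told apart.

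Glycolysis splits glucose into pyruvate in the cytosol and yields ATP and NADH, and lactate dehydrogenase turns pyruvate into lactate while giving back the NAD+ that the pathway needs. Hexokinase, phosphofructokinase and pyruvate kinase catalyse the steps that are practically irreversible, and most steps have several isozymes encoded by separate genes. The prostate epithelium is known for secreting citrate instead of oxidising it, and its tumours are known for a metabolism that differs from that of many other carcinomas.

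Per length of gene, the transcript levels of the 10 enzymes covered a wide range. The levels are given as FPKM, the fragment count scaled by gene length and by library size. Pkm had the highest FPKM, with 204 ± 4.25 (SD, n = 3) in CON prostates and 337 ± 19.0 (SD, n = 3) in T + E2 prostates. Ldha, Pgk1 and Aldoa followed with group means between 60.6 and 106 FPKM, and their ranges over the 6 mice overlapped between neighbours in this order. Pfkl, Hk2, Eno1, Ldhb and Hk1 had group means between 7.31 and 20.8 FPKM, again with overlapping neighbours, and Pfkp was lowest with 3.48 ± 0.484 (SD, n = 3) in CON prostates and 2.40 ± 0.557 (SD, n = 3) in T + E2 prostates. Between Pkm and Ldha, between Aldoa and Pfkl and between Hk1 and Pfkp the ranges over the 6 mice did not overlap. The order depended on the gene length used. The lengths implied by the deposited counts and FPKM gave Hk1 12382 bases, against 3851 bases of its principal transcript. How these lengths were derived is not known. For Aldoa the implied length, 5910 bases, exceeds the annotated span of the gene (chr7:126795234-126800751), so it is not the length of its joined exons. With principal transcripts Hk1 stood above Hk2 and Pkm overlapped Aldoa. Sequence shared with other genes, from which reads could be lost or split, also limits the order. The share of 50-base stretches of the principal transcript found in other genes was 0% for Hk1 and Hk2. It was 13.9% for Aldoa, 34.4% for Pkm, 68.0% for Pgk1 and 72.2% for Eno1.

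Promoter sequence is shown for Pgk1, the enzyme with the largest log2 fold change of the 10, and for Hk2 and Ldha, whose adjusted p missed the threshold although their upstream bases hold the same letters. The 250 bases before the RefSeq transcription start were searched on both strands for ACGTG, the core of the hypoxia response element, for CACGTG, the E-box bound by Myc and related factors, and for GGGCGG, the GC box. Matches are printed in capitals, and CACGT and CCGCCC are the same letters read on the other strand. The RefSeq windows (GRCm38.p6) are chrX:106186850-106187099 on the plus strand for Pgk1, chr6:82774455-82774704 on the minus strand for Hk2 and chr7:46845554-46845803 on the plus strand for the first of 2 annotated Ldha starts.
Pgk1: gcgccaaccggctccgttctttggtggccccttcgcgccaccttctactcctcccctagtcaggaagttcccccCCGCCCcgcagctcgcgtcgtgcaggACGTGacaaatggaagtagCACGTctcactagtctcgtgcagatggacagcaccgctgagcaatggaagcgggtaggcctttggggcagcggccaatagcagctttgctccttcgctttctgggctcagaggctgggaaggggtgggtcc
Hk2: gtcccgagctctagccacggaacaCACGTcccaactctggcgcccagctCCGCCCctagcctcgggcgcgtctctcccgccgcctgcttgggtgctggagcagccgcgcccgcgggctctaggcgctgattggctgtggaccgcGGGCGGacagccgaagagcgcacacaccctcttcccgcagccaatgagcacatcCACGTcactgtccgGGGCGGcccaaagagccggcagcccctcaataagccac
Ldha: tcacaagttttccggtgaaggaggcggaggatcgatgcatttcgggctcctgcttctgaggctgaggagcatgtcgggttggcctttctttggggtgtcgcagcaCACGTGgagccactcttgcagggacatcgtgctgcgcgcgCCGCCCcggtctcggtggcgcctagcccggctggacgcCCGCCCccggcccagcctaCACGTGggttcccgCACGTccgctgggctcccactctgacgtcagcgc

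The Pgk1 window held 2 matches to ACGTG and 1 to GGGCGG, and the Hk2 window 2 and 3. In the Ldha window there were 5 matches to ACGTG, of which 4 are both strands of 2 CACGTG palindromes, and 2 to GGGCGG. Over all RefSeq windows of the 10 enzymes, ACGTG occurred for 5 of 10 genes (Hk2, Aldoa, Pgk1, Pkm and Ldha), GGGCGG for 7 and CACGTG for Ldha alone. Several of these genes have more than 1 annotated start and so more than 1 window. Counted by window, ACGTG occurred in 6 of 17, GGGCGG in 9 and CACGTG in 1. Among the 250 upstream bases of 32851 mouse promoters, 16.6% held ACGTG, 6.02% held CACGTG and 32.7% held GGGCGG. Of the 3 enzymes called higher in T + E2 prostates, Pgk1 and Pkm held ACGTG and Pfkl did not, while the uncalled Hk2, Aldoa and Ldha held it too. A match describes letters in this window and is not evidence of a bound factor.

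The comparison asked whether transcripts of these enzymes differed between the T + E2 and CON prostates. Pkm, Pgk1 and Pfkl rose, by 1.69-, 1.80- and 1.35-fold, and none of the 10 was called lower by edgeR. Among the genes tested by edgeR's quasi-likelihood test at an adjusted p under 0.05, 19.6% were called in either direction, 10.4% as higher and 9.25% as lower in T + E2 prostates, against 3 higher and 0 lower among the 10 enzymes. DESeq2 called 6 of the 10, adding Hk2, Eno1 and Pfkp, the last of them lower, and these 6 also had an unadjusted p under 0.05 in edgeR. Over all genes DESeq2 called 9.84% as higher and 8.37% as lower, and 17.4% were higher and 17.1% lower at an unadjusted p under 0.05 in edgeR. None of the 10 met the study's stricter rule, with edgeR or DESeq2, which also asks for a 2-fold change and which 7.64% of the tested genes met. The groups did not overlap for 6 of the 10 enzymes (Pkm, Pgk1, Pfkl, Eno1 and Hk2 higher, Pfkp lower), compared with 40.7% of the tested genes. The median log2 fold change was 0.29 over the 10 enzymes and -0.002 over all tested genes. Values per mouse are given below as TMM-normalized CPM, that is counts scaled to a common library size but not by gene length. By library total alone, without the TMM factor, 3 counts correspond to 0.181 to 0.202 CPM, and this covers counting error alone.

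**Figure D1:**
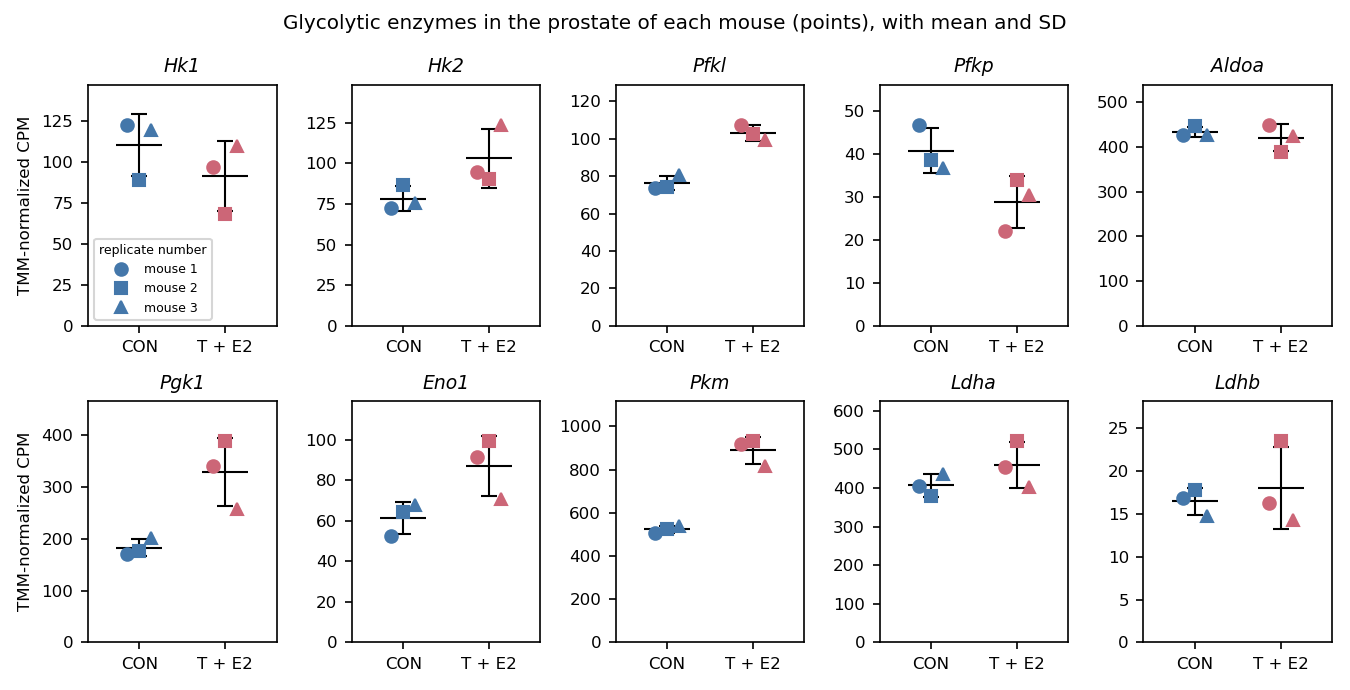
TMM-normalized CPM of the 10 glycolytic enzymes in each mouse (points, with the marker shape giving the replicate number), with the group mean (long bar) and SD (whiskers, n = 3). The Pkm values of the T + E2 group lie between 816 and 931 CPM, above all CON values of 508 to 541 CPM, whereas the groups overlap for Hk1, Aldoa, Ldha and Ldhb.

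The hexokinases phosphorylate glucose on entry into the cell. Hk2 (GRCm38 chr6:82725025-82774454, minus strand), the inducible isozyme of insulin-sensitive tissues and many tumours, measured 72.7, 86.7 and 75.4 CPM in CON mice and 94.8, 90.5 and 124 CPM in T + E2 mice. The groups did not overlap, but the closest mice were only a few CPM apart. The log2 fold change was 0.40 (SE 0.14, adjusted p = 0.0831 by edgeR's quasi-likelihood test), with a 95% confidence interval of 0.08 to 0.72. Among the other settings the adjusted p ranged from 0.0487 with DESeq2, the single setting that called Hk2, to 0.197. Hk1 (chr10:62268855-62379908, minus strand), the isozyme found in most tissues, had 123, 88.8 and 119.5 CPM in CON mice and 96.8, 68.2 and 110.0 CPM in T + E2 mice. The number 2 mouse had the lowest Hk1 level in both groups, and the groups overlapped. The Hk1 difference was -0.27 on the log2 scale (SE 0.19, adjusted p = 0.36). A transcript annotated on the opposite strand of Hk1, Hk1os, had 32 to 43 counts per mouse against 1120 to 1901 for Hk1, and the strand setting of the counting is not given in the sources used here.

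Hk2 made up 55.5 ± 6.76% (SD, n = 3) of the summed hexokinase FPKM in CON prostates and 65.9 ± 3.03% (SD, n = 3) in T + E2 prostates, and these shares overlapped. The Hk1 share was 47.2, 35.8 and 46.4% in CON mice and 35.4, 28.6 and 32.7% in T + E2 mice, so that the groups were separate by less than 1 percentage point. With principal transcript lengths Hk1 was the larger share, 65.7% in CON prostates and 54.7% in T + E2 prostates, and the direction of the difference was the same. Hk3, the isozyme known from leukocytes, was at 0.765 to 2.80% of the FPKM. Hk3 itself was not called (log2 fold change 0.48, SE 0.46, adjusted p = 0.498). Hkdc1 had at most 1 count in any mouse and was not tested. The isozyme shares are descriptions without a test.

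Phosphofructokinase phosphorylates fructose 6-phosphate and is the main point of control of the pathway. Pfkl (chr10:77986947-78010083, minus strand), the liver-type subunit, measured 73.8, 74.1 and 80.4 CPM in CON mice and 107, 102 and 99.4 CPM in T + E2 mice. Every T + E2 mouse lay above every CON mouse, and the gap between the groups exceeded the range within each. Pfkl rose by 0.44 on the log2 scale (SE 0.087, adjusted p = 0.0111). This call was lost without CON 2 (adjusted p = 0.0510), without T + E2 1 (0.0514) and without the number 2 mouse of both groups (0.0864), while the log2 fold change stayed between 0.38 and 0.48 in all settings.

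Pfkp (chr13:6579768-6648777, minus strand), the platelet-type subunit, went in the other direction without passing the test. Its levels were 46.9, 38.8 and 36.9 CPM in CON mice and 22.1, 34.0 and 30.5 CPM in T + E2 mice, and the groups did not overlap. The log2 fold change was -0.50 (SE 0.17, adjusted p = 0.0738, 95% confidence interval -0.89 to -0.11). DESeq2 gave the smallest adjusted p of the settings tried, 0.0407, and the largest was 0.182. Of the Pfkp transcript, 17.1% is shared with the gene Pitrm1 in stretches of 50 bases, so some reads could belong to either.

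The muscle-type subunit Pfkm, which is not among the 10, had 43.4, 48.2 and 50.6 CPM in CON mice and 42.5, 43.2 and 41.6 CPM in T + E2 mice, a log2 difference of -0.16 (SE 0.09, adjusted p = 0.249). As a share of the summed phosphofructokinase FPKM, Pfkl went from 44.5 ± 0.688% to 55.7 ± 1.63%, Pfkp from 9.84 ± 1.66% to 6.41 ± 1.37% and Pfkm from 45.7 ± 1.91% to 37.9 ± 0.263% (SD, n = 3 each). None of the 3 shares overlapped between the groups. The same directions without overlap were found with CPM and with principal transcript lengths, although the sizes of the Pfkp and Pfkm shares depended on the scale. In CON prostates Pfkp was 24.9% by CPM and 21.1% with principal transcript lengths. Pfkm was 28.8% and 35.2% there, below Pfkl at 46.3% and 43.7%.

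**Figure D2:**
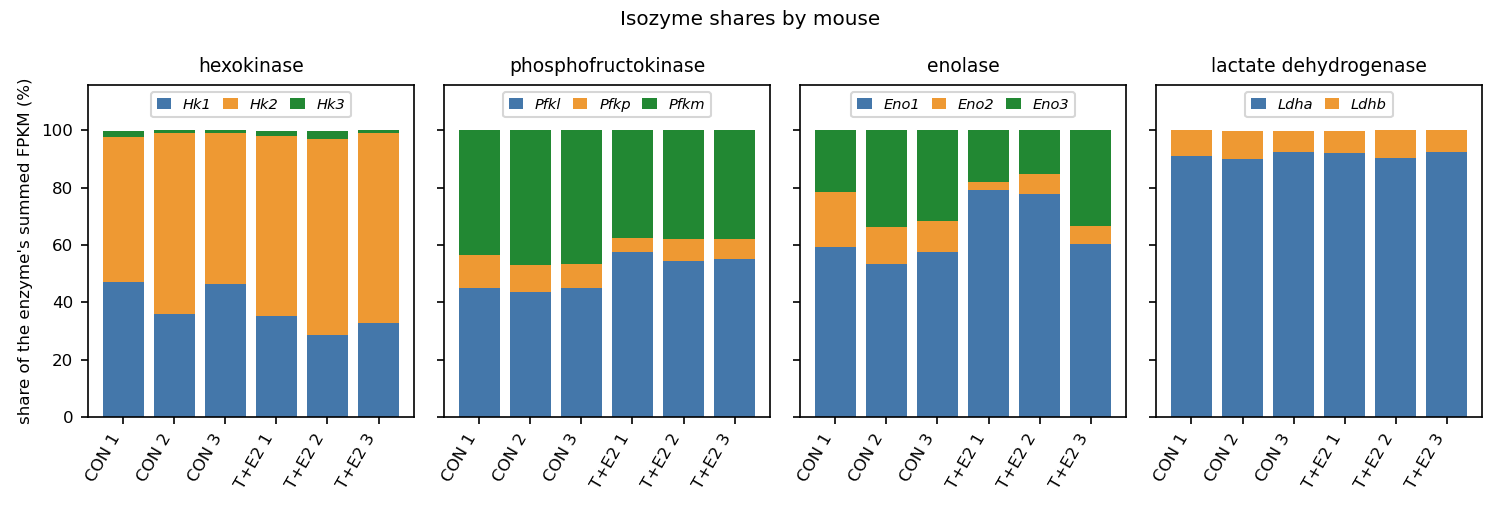
Share of each isozyme in the summed FPKM of its enzyme, in percent, in each of the 6 mice (stacked bars, isozymes at 0.5% or more in any mouse, Eno1b not included). The Pfkl segment takes 43.7 to 44.9% in CON mice and 54.5 to 57.6% in T + E2 mice, whereas the Ldhb segment stays between 7.29 and 9.89% in all 6.

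Aldolase A (chr7:126795234-126800751, minus strand) splits fructose 1,6-bisphosphate. Aldoa had 427, 446 and 426 CPM in CON mice and 450, 389 and 424 CPM in T + E2 mice. The T + E2 values lay on both sides of the CON values. The log2 fold change was -0.04 (SE 0.094, adjusted p = 0.798), with a 95% confidence interval of -0.26 to 0.18, and its sign turned to 0.01 without T + E2 2. Aldoa was 94.8% of the summed aldolase FPKM in CON prostates and 94.5% in T + E2 prostates. The brain isozyme Aldoc was not called (log2 fold change 0.02, SE 0.12, adjusted p = 0.923).

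Pgk1 (chrX:106187100-106203699, plus strand) encodes the phosphoglycerate kinase that makes the first ATP of the pathway. It measured 170.5, 177 and 201 CPM in CON mice and 341, 388 and 258 CPM in T + E2 mice. All T + E2 mice were above all CON mice, with T + E2 3 the lowest of its group. Pgk1 rose by 0.85 on the log2 scale (SE 0.15, adjusted p = 0.0075), 1.80-fold. The call was kept without any single mouse and lost without the number 2 mouse of both groups, where the log2 fold change was 0.69 (adjusted p = 0.0668). The testis isozyme Pgk2 had a count of 0 in all 6 mice. Of the Pgk1 transcript, 68.0% of the stretches of 50 bases occur in other genes, nearly all of them in the processed pseudogene Pgk1-rs7, which was itself given 4 to 14 counts against 2575 to 6378 for Pgk1.

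Enolase makes phosphoenolpyruvate. Eno1 (chr4:150236721-150248879, plus strand), the isozyme of most tissues, had 52.7, 64.1 and 67.9 CPM in CON mice and 91.5, 99.3 and 70.7 CPM in T + E2 mice. The groups did not overlap, and T + E2 3 was close to CON 3. The log2 fold change was 0.50 (SE 0.15, adjusted p = 0.0521, 95% confidence interval 0.15 to 0.85), just outside the threshold. It was called by DESeq2 (adjusted p = 0.0135), without T + E2 3 (0.0212) and with the counts of the near-identical gene Eno1b added (0.0449), and over all settings the adjusted p ran up to 0.224. Eno1b shares 70.5% of the 50-base stretches of Eno1 and was given 443 to 727 counts per mouse against 796 to 1631 for Eno1, so the level of Eno1 alone is uncertain. For Eno1b alone the log2 fold change was 0.37 (SE 0.11, adjusted p = 0.0502).

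Eno2, the neuronal isozyme, fell. Its levels were 28.0, 24.8 and 21.3 CPM in CON mice and 5.53, 14.2 and 11.9 CPM in T + E2 mice. The groups did not overlap, and T + E2 1 was the lowest mouse. The log2 fold change was -1.22 (SE 0.30, adjusted p = 0.025), and the call was lost, with an adjusted p of up to 0.0657, when CON 1, CON 2, T + E2 3 or both number 2 mice were left out. Markers of neurons and Schwann cells fell in the same mice, with 3 of 4 called lower and a summed level of 196 to 247 CPM in CON prostates and 62.2 to 129 CPM in T + E2 prostates. The part of these cells in the Eno2 result was not tested. Eno3, the muscle isozyme, had 7.62, 16.2 and 14.9 CPM in CON mice and 8.30, 7.79 and 15.7 CPM in T + E2 mice (log2 fold change -0.29, SE 0.35, adjusted p = 0.597). Its 3 highest mice, CON 2, CON 3 and T + E2 3, were also the highest for the summed skeletal muscle markers, at 285, 151 and 207 CPM against 68.9 to 108 CPM in the other mice, and 0 of 6 of these markers were called by edgeR or DESeq2 or had an unadjusted p under 0.05. As a share of the summed FPKM of Eno1, Eno2 and Eno3, without Eno1b, Eno1 was 59.3, 53.5 and 57.5% in CON mice and 79.1, 77.9 and 60.3% in T + E2 mice. With Eno1b in the summed FPKM, Eno1 and Eno1b together were 84.0, 77.7 and 81.5% in CON mice and 91.8, 91.4 and 83.5% in T + E2 mice, and the groups overlapped. By CPM the share of Eno1 and Eno1b together was 70.1, 69.5 and 73.9% in CON mice. It was 90.5, 86.7 and 79.5% in T + E2 mice, without overlap, so the overlap depended on the scale.

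**Figure D3:**
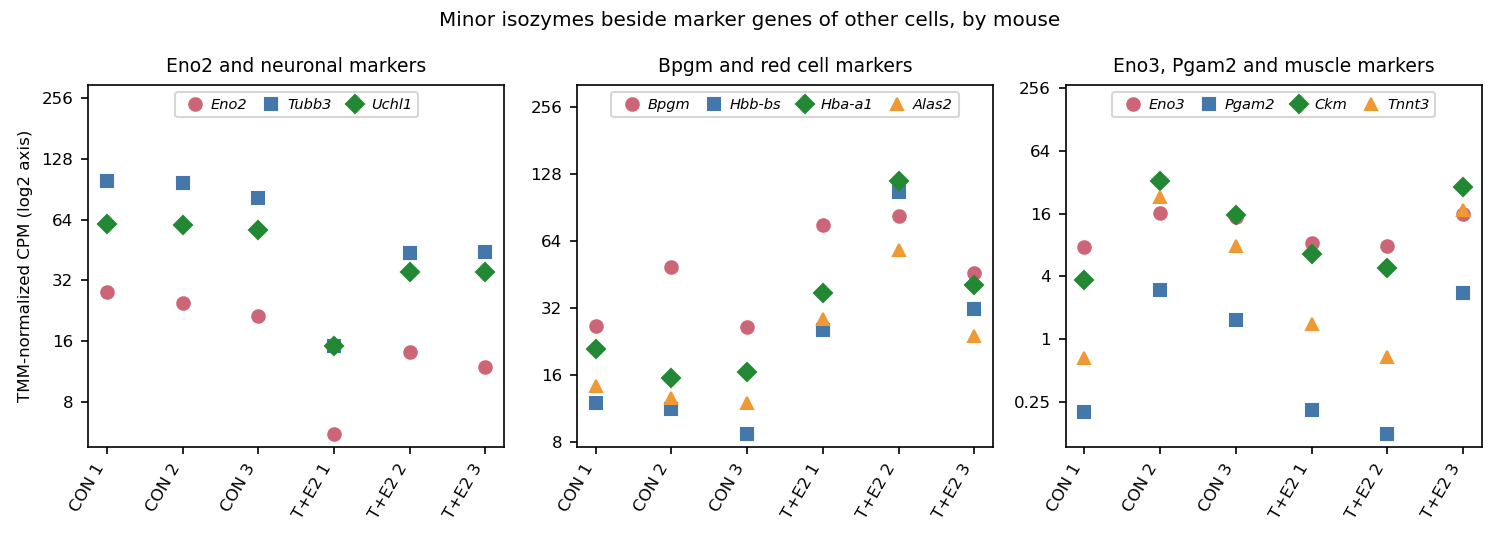
TMM-normalized CPM (log2 axis) in each mouse of Eno2 beside neuronal markers, of Bpgm beside red cell markers, and of Eno3 and Pgam2 beside skeletal muscle markers. Eno2, Tubb3 and Uchl1 are lowest in T + E2 1 (5.53, 15.2 and 15.2 CPM), and Eno3, Pgam2, Ckm and Tnnt3 share CON 2, CON 3 and T + E2 3 as their 3 highest mice.

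Pyruvate kinase makes the last ATP of the pathway. Pkm (chr9:59656368-59679375, plus strand) encodes the muscle type with its splice forms M1 and M2, of which M2 is known from proliferating tissue. A count per gene does not separate the forms. Pkm had 508, 524 and 541 CPM in CON mice and 919, 931 and 816 CPM in T + E2 mice. The CON mice lay close together, and the lowest T + E2 mouse was far above the highest of them. Pkm rose by 0.76 on the log2 scale (SE 0.097, adjusted p = 0.0015), 1.69-fold, and was called in all 14 other settings, with adjusted p values up to 0.0258. The liver and red cell pyruvate kinase gene Pklr had 1 count in 1 mouse. Of the 50-base stretches of Pkm, 34.4% occur in other genes, most of them in the gene Gm6560.

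The FPKM of the 10 enzymes summed to 476, 485 and 494 in CON mice and 674, 726 and 631 in T + E2 mice, without overlap. The ratio of the means was 1.40, or 0.48 on the log2 scale, and 0.28 with Pkm left out. Pkm alone was 42.1% of the summed FPKM in CON prostates and 49.8% in T + E2 prostates. Its share depended on the scale, with 27.2% and 35.1% of the summed CPM and 22.7% and 30.0% with principal transcript lengths, where Aldoa outweighed Pkm in CON prostates. The log2 ratio of the sums was 0.39 for CPM and 0.36 with principal transcript lengths.

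Lactate dehydrogenase is a tetramer, and its A subunit is known for favouring lactate formation and its B subunit for favouring lactate use. Ldha (chr7:46841475-46855627, plus strand) had 405, 378 and 437 CPM in CON mice and 454, 521 and 404 CPM in T + E2 mice. Ldhb (chr6:142490249-142507957, minus strand) had 16.9, 17.8 and 14.8 CPM in CON mice and 16.3, 23.5 and 14.3 CPM in T + E2 mice. The groups overlapped for both, and T + E2 2 was the highest mouse for both. The log2 fold changes were 0.18 for Ldha (SE 0.12, adjusted p = 0.333, 95% confidence interval -0.10 to 0.45) and 0.13 for Ldhb (SE 0.19, adjusted p = 0.665, 95% confidence interval -0.31 to 0.57), and the sign for Ldhb turned to -0.11 without T + E2 2. Ldhb made up 8.68 ± 1.31% (SD, n = 3) of the summed Ldha, Ldhb and Ldhc FPKM in CON prostates and 8.29 ± 1.07% (SD, n = 3) in T + E2 prostates. The size of this share depended on the scale. It was 3.92% and 3.73% by CPM and 5.24% and 4.99% with principal transcript lengths. Of the 50-base stretches, 17.1% of those of Ldha and 27.0% of those of Ldhb occur in other genes. The testis subunit Ldhc had at most 3 counts in a mouse.

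Of 23 further enzymes and isozymes of glycolysis, 14 could be tested, of which 3 were called higher and 2 lower, with a median log2 fold change of 0.01. Pgam1, the phosphoglycerate mutase of most tissues, rose by 0.42 on the log2 scale (SE 0.094, adjusted p = 0.0174), from 172, 174 and 177 CPM in CON mice to 253, 238 and 211 CPM in T + E2 mice. Of its transcript, 41.5% is shared with the pseudogene Pgam1-ps2, and the call was lost in 5 of the 14 other settings. The groups did not overlap for Pgam1. Ldhd, the mitochondrial D-lactate dehydrogenase that acts on another stereoisomer of lactate, rose by 0.77 (SE 0.12, adjusted p = 0.0039) and was called in all settings. Pgam5, which despite its name is a protein phosphatase of mitochondria, fell by 0.53 on the log2 scale (SE 0.12, adjusted p = 0.0212). Its call was lost in 5 of the 14 other settings (adjusted p up to 0.101), and 66.2% of its 50-base stretches occur in other genes. Neither Ldhd nor Pgam5 catalyses a step from glucose to pyruvate.

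Bpgm makes the bisphosphoglycerate that regulates haemoglobin in red cells. Its levels were 26.6, 48.8 and 26.3 CPM in CON mice and 75.4, 82.6 and 46.0 CPM in T + E2 mice, overlapping between CON 2 and T + E2 3. Bpgm rose by 1.00 on the log2 scale (SE 0.29, adjusted p = 0.0459), a call lost in 7 of the 14 other settings. All 5 red blood cell markers were also called higher. Their summed level was 66.2, 56.6 and 53.9 CPM in CON mice and 133, 420 and 136 CPM in T + E2 mice. T + E2 2 was the highest mouse for both, whereas CON 2, the highest CON mouse for Bpgm, was not the highest for the markers. Whether blood content had a part in the Bpgm result was not tested.

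For the remaining steps no difference was called. Gpi1, the isomerase of hexose phosphates, had a log2 fold change of -0.14 (SE 0.10, adjusted p = 0.38). Tpi1, the triosephosphate isomerase, had 187, 199 and 221 CPM in CON mice and 253, 275 and 210 CPM in T + E2 mice, a difference of 0.28 on the log2 scale (SE 0.12, adjusted p = 0.147). Gapdh, often used as a reference gene, had 54.3, 62.5 and 67.8 CPM in CON mice and 65.2, 73.1 and 45.0 CPM in T + E2 mice, a difference of -0.01 (SE 0.18, adjusted p = 0.976). Of the Gapdh transcript, 82.5% of the 50-base stretches occur in other genes, so reads could be lost or split and its low level is uncertain. Adpgk, which phosphorylates glucose with ADP, had a difference of 0.05 (SE 0.11, adjusted p = 0.774), and the muscle mutase Pgam2, at 0.122 to 2.96 CPM, one of -0.61 (SE 1.09, adjusted p = 0.729). The 9 untested genes, among them Gapdhs, Eno4 and Ldhal6b, had at most 13 counts in any mouse.

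**Figure D4:**
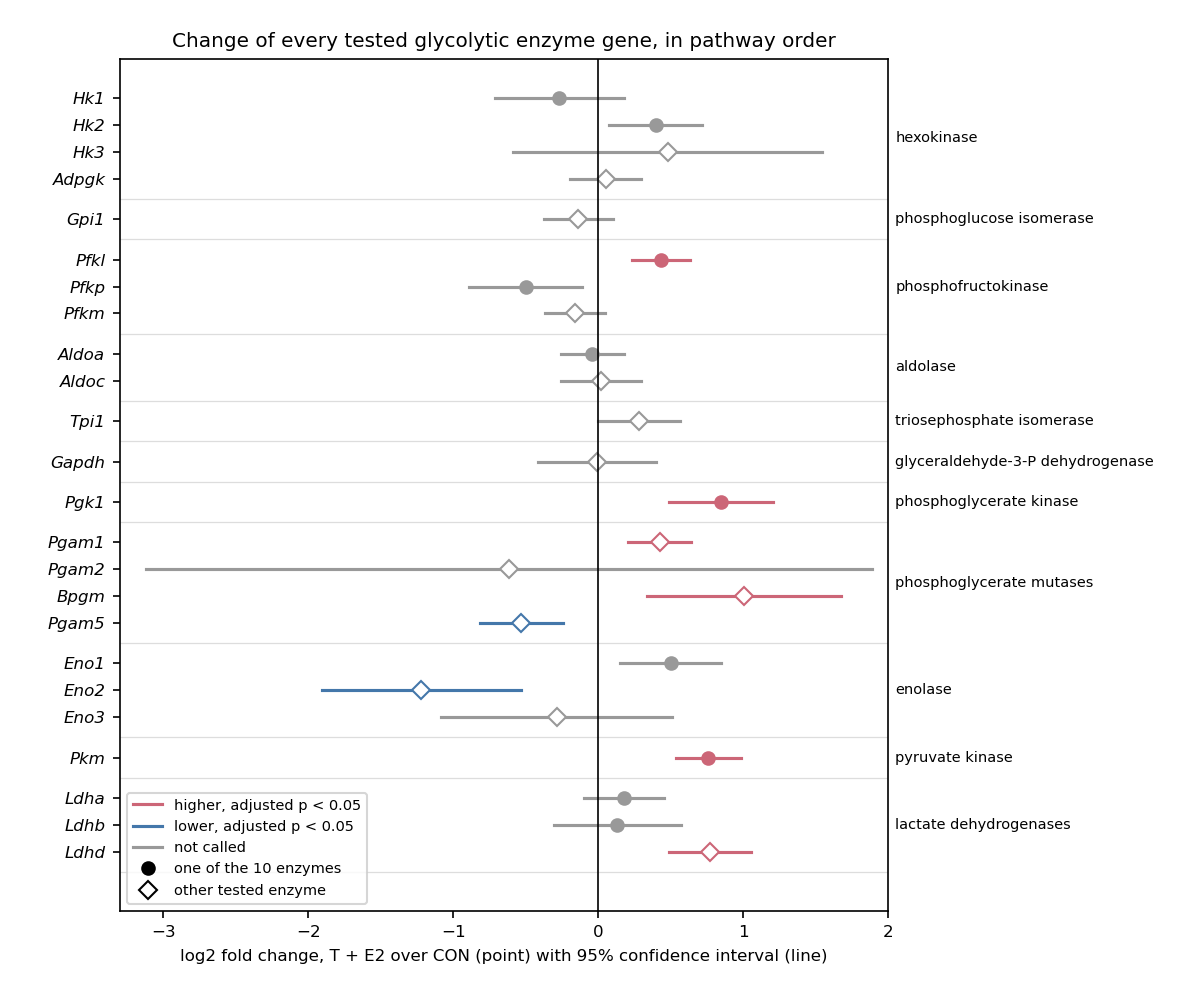
Log2 fold change (T + E2 over CON, points) with its 95% confidence interval (lines) for the 10 enzymes (circles) and the other 14 tested enzyme genes (diamonds), in pathway order. Called genes are coloured, and Pfkl (0.44), Pgk1 (0.85) and Pkm (0.76) are the 3 of the 10 enzymes whose gene was called.

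Genes around the pathway were read from the same edgeR fit, by lists. Of 10 glucose and lactate transporters 5 were called higher and 0 lower (2 lower at an unadjusted p under 0.05 and 1, Slc2a4, by DESeq2), led by the glucose transporter Slc2a3 (4.55 on the log2 scale, SE 0.23, adjusted p = 1.84e-05) and Bsg, the chaperone of lactate transporters (1.80, SE 0.14, adjusted p = 0.00016). The fructose transporter Slc2a5 rose by 1.72, Slc2a12 by 1.12 and Slc2a1, the common glucose transporter, by 0.31 on the log2 scale. Slc2a5 had low counts, 6 to 8 per CON mouse and 19 to 24 per T + E2 mouse. Its log2 fold change ranged from 0.29 to 1.87 over the other settings. The Slc2a1 call was lost in 11 of the 14 other settings (adjusted p up to 0.13) and the Slc2a5 call in 1. The lactate exporter Slc16a3 was not called (0.53, SE 0.26, adjusted p = 0.192). Of 5 regulators of fructose 2,6-bisphosphate, the activator of phosphofructokinase, Pfkfb2 had a log2 fold change of 0.38 (adjusted p = 0.0438) and rose, whereas Pfkfb4 fell by 0.56 (adjusted p = 0.0035). The Pfkfb2 call was lost in 11 of the 14 other settings. Pfkfb3 had a log2 fold change of 0.75 with an adjusted p of 0.0519.

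Among 9 genes of the pentose phosphate pathway 1 was called higher and 0 lower, also by DESeq2, with 2 higher and 1 lower at an unadjusted p under 0.05. This was G6pdx, whose enzyme opens the pathway, which rose by 0.93 on the log2 scale (SE 0.10, adjusted p = 0.000685), from 86.5 to 90.5 CPM in CON mice to 149 to 184 CPM in T + E2 mice. Of 13 tested genes of glycogen metabolism 2 were called higher (Phka1 by 0.70 and Pygl by 0.58) and 1 lower (Phkg2 by -0.46), the first and the last being subunits of phosphorylase kinase. The Pygl call was lost in 10 of the 14 other settings (adjusted p up to 0.114), DESeq2 among them, and the Phkg2 call in 1. Of 7 genes of the polyol route and fructose entry, Akr1b3, the aldose reductase, fell by 1.69 and Sord, which makes fructose from sorbitol, fell by 1.23 on the log2 scale, while Akr1b8 rose by 0.59, a call lost in 7 of the 14 other settings (adjusted p up to 0.226). Of 6 tested genes of gluconeogenesis 1 was called, Pck2, which fell by 0.50 on the log2 scale, a call lost when any of 5 mice was left out (adjusted p up to 0.103).

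Where pyruvate enters mitochondria, 1 of 13 genes was called. Pdk2, one of the kinases that switch off pyruvate dehydrogenase, fell by 0.82 on the log2 scale (SE 0.13, adjusted p = 0.0041), with 124 to 140 CPM in CON mice and 60.5 to 83.9 CPM in T + E2 mice. Of 7 genes of the shuttles that carry cytosolic NADH electrons, 1 was called, Gpd1l, with a log2 fold change of -0.31 (adjusted p = 0.0402), and this call was lost in 9 of the 14 other settings, among them each of the 6 with 1 mouse left out (adjusted p up to 0.144).

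Of 15 transcription factors of glycolytic genes and their regulators, 2 were called higher and 1 lower. Hif1a, the oxygen-regulated factor, had 64.6, 63.3 and 51.7 CPM in CON mice and 156, 144 and 117.5 CPM in T + E2 mice, and rose by 1.22 on the log2 scale (SE 0.14, adjusted p = 0.000858). Hif1a is controlled mainly at the level of its protein, which was not measured here. Egln3, a prolyl hydroxylase that marks this protein for degradation, rose by 1.00, and Srebf1, a factor of lipid synthesis, fell by 0.49 on the log2 scale, calls lost in 3 and 4 of the 14 other settings (adjusted p up to 0.0672 and 0.0797). Of 10 tested hypoxia-response genes outside glycolysis 2 were called higher, Hmox1 by 0.63 and Bnip3 by 0.50, and 0 lower (2 at an unadjusted p under 0.05 and 1, Ddit4, by DESeq2), with a median log2 fold change of 0.12 over the 10. The Hmox1 call was lost in 6 and the Bnip3 call in 5 of the 14 other settings (adjusted p up to 0.15 and 0.145).

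**Figure D5:**
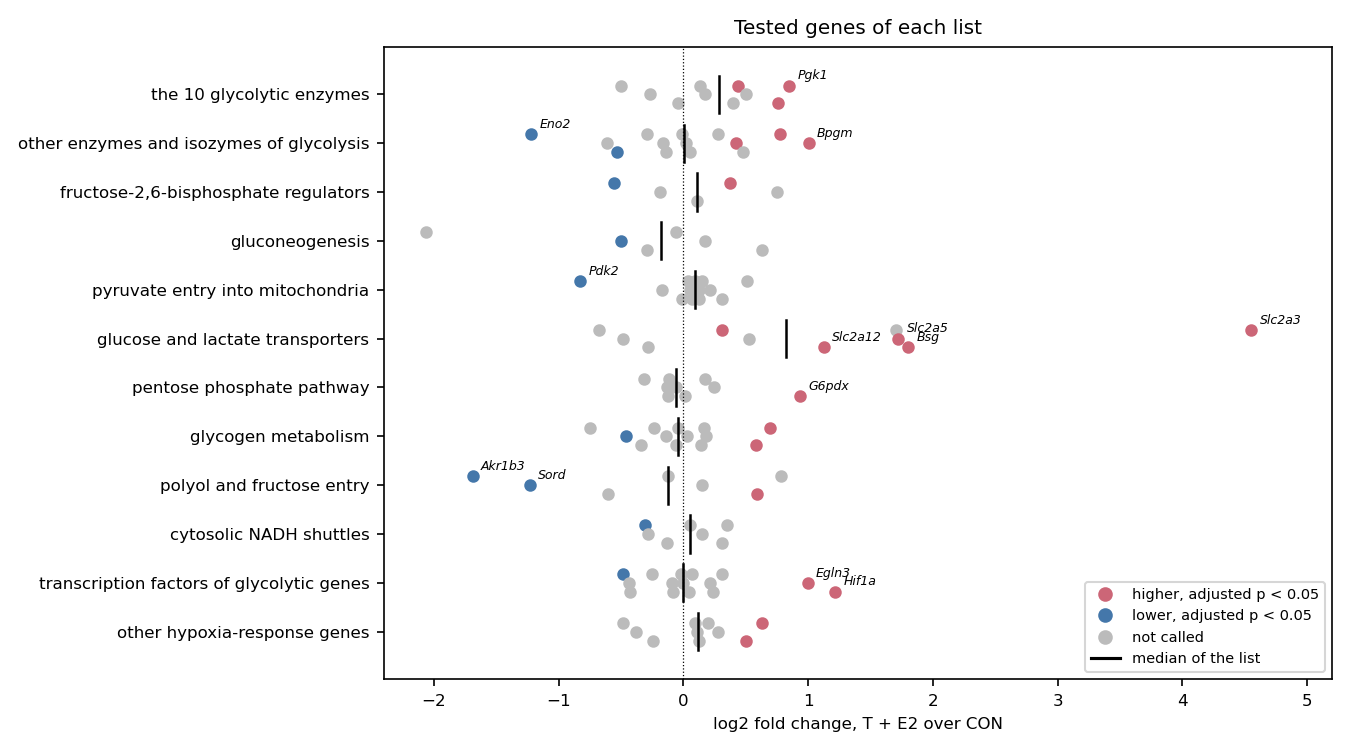
Log2 fold change (T + E2 over CON) of every tested gene in each list (points, coloured where called, spread vertically for legibility), with the median of the list (black bars). The 10 enzymes span -0.50 to 0.85 with a median of 0.29, and Slc2a3 at 4.55 lies farthest to the right among the listed genes.

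The libraries held 14816146 to 16555549 counts. Prostate identity was present in every mouse, with Hoxb13, a factor of prostate identity, at 389 to 472 CPM and not called. CON 2 and T + E2 2 stood apart by seminal vesicle transcripts, with 9939 and 601 CPM summed over 6 markers against 0.629 to 3.97 CPM in the other 4 mice, and 0 of 3 tested markers were called by edgeR or DESeq2 (1 at an unadjusted p under 0.05). Without these 2 mice Pkm alone of the 10 enzymes was called. Of the luminal epithelial markers 3 of 7 were called lower, led by the secretory gene Pbsn (12360 to 16650 CPM in CON mice, 1259 to 1754 CPM in T + E2 mice), and of the basal markers 1 of 4 higher. Of the smooth muscle markers 2 of 5 were called lower, of the fibroblast, endothelial and adipocyte markers 0 of 5, 0 of 4 and 0 of 3 (by DESeq2 too, with 2 adipocyte markers lower at an unadjusted p under 0.05), of the leukocyte markers 1 of 5 higher (Itgam) and of the cell cycle markers 1 of 4 lower (Top2a). The part of cell composition in the results on the enzymes was not tested.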

How the data were processed

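Paired-end RNA-seq of prostate from 6 mice, 3 per group, was analysed, with groups and replicate numbers taken from the sample labels. The authors deposited 1 table with whole-number read counts per gene and FPKM values per mouse, the latter scaling the counts by gene length and library size. The submitters' processing notes name TopHat, Bowtie2 and HTSeq. Versions, annotation, genome build and strand setting are not given in the sources used here. The deposited coordinates of all 10 enzymes equal those of GENCODE M21 on GRCm38.

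The count test was run with edgeR 4.0.16 (R 4.3.3): filterByExpr (minimum count 10, minimum total count 15), TMM scaling, and the two-sided quasi-likelihood test with Benjamini-Hochberg adjustment over 15580 genes. A gene was called at an adjusted p under 0.05. The biological coefficient of variation was 18.0%. Only this edgeR fit was tested on simulated counts, which were drawn from its own estimates, and the alternatives were not. For 3 mice against 3, an exact permutation test of a single value cannot give a p below 0.1, so no such test was run.

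Isozyme shares and sums were computed from FPKM. Shared sequence was counted as stretches of 50 bases of each principal transcript found in other GENCODE genes. The alternatives were DESeq2 1.42.0 (the tool of the study's methods), median-of-ratios and total-count scaling, no filter, limma 3.58.1 on log2(FPKM + 0.1) and log2(FPKM + 1), a replicate block and each mouse left out. Named were all 10 enzymes, the other tested glycolytic genes and the isozymes of the 10, up to 4 called genes of each other list with the largest change, and Hif1a, Slc2a1 and Slc16a3. Pfkfb3, Slc2a4, Ddit4, Pgam1-ps2, Hk1os, Gm6560 and Pitrm1 were named after their values were seen. Members and lists were chosen with earlier results of these data known. Plots used matplotlib 3.10.9 under Python 3.11.15. Some genes that the naming rule and the marker lists cover are not reported here.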

Additional observations from a re-analysis of the deposited data

How the results depend on the processing

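The groups held 3 mice each. In RNA of bulk tissue, cell composition cannot be told apart from expression per cell, and the deposited gene counts do not resolve isoforms or near-identical copies. The count of the 10 enzymes called was 3 (3 higher, 0 lower) under median-of-ratios scaling, library totals, no filter, both limma fits and the replicate block, 6 under DESeq2 (5 higher, 1 lower), and 2 to 4 with 1 mouse left out. Settings without the number 2 mouse of both groups, with principal transcript lengths and with Eno1b added were chosen after seeing the data. Without both number 2 mice 1 of the 10 was called (1 higher, 0 lower), among 1354 genes in all (822 higher, 532 lower, against 1620 and 1441 with all mice). Leaving out 1 mouse at a time gave 1929 to 2741 genes called, of which 834 to 1267 were lower. Limma on log2(FPKM + 1) called 561 genes with a 2-fold change, against 1191 in edgeR. Replicate numbers do not pair the mice (same-number correlations of deviations from the group means -0.05, 0.03 and 0.05, and not every mouse correlated best with its own number), and a block for them called 2174 genes, 945 of them lower, and Pkm, Pgk1 and Pfkl of the 10 enzymes.

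Signs turned for 7 uncalled genes, and the cause was not tested. Aldoc, at 0.02, was -0.0207 under library totals, -0.0226 under limma with 0.1 added and -0.0183 with 1 added. With 1 mouse left out, the log2 fold change ranged from -0.0437 to 0.116 for Aldoc, from -0.0888 to 0.0146 for Aldoa, from -0.11 to 0.27 for Ldhb, from -0.16 to 0.17 for Gapdh, from -3.20 to 0.24 for Pgam2 and from -0.0301 to 0.0934 for Adpgk. Without both number 2 mice it was 0.0344 for Aldoa, -0.0491 for Ldhb, 0.77 for Pgam2, 0.09 for Eno3 and -6e-04 for Adpgk. The share of Pfkl differed by 11.2 percentage points by FPKM and 12.8 by CPM, and that of Pfkp by -3.43 by FPKM, -8.35 by CPM and -7.03 with principal transcript lengths. The share of Eno1 differed by 15.7 points by FPKM, by 4.20 with Eno1b added to the enolase sum and by 7.80 for Eno1 and Eno1b together. The summed level of the 10 enzymes differed by 0.48 on the log2 scale by FPKM, 0.39 by CPM and 0.36 with principal transcript lengths.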
